A study of Mus musculus with 3 samples.

Results

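The genes described are the subunits of the transcription factor NF-kB and the IkB proteins that hold it in check, in macrophages sorted from mouse kidneys. They were chosen by name as Rela, Rel, Relb, Nfkb1, Nfkb2, Nfkbia, Nfkbib, Nfkbie, Nfkbiz and Bcl3. All 10 have a row among the 14811 genes listed. The data are 3 RNA-seq libraries from 3 C57BL/6J mice, which carried no engineered allele that the labels name. Each mouse received PBS into the bloodstream, and its kidneys were taken 1 h later, digested with enzymes for 30 min at room temperature and their macrophages sorted. The labels do not name the markers of the sort. There is a single group and no control, so what can be described is how much of each transcript the cells held, how genes stood to each other in the same library, and how far the 3 mice differed.

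NF-kB works as a dimer of proteins that share a Rel homology domain. Rela, Rel and Relb encode the subunits that activate transcription, and Nfkb1 and Nfkb2 encode precursors that are processed to the DNA-binding subunits p50 and p52. In the canonical arm of the pathway, receptors for microbial products, interleukin-1 or TNF activate an IkB kinase, the classical IkB proteins are degraded, and dimers led by the Rela protein enter the nucleus. In the non-canonical arm, receptors such as CD40 and the lymphotoxin receptor lead to processing of the Nfkb2 precursor, which frees dimers with the Relb protein. Several of the inhibitors, Nfkbia first among them, are themselves NF-kB target genes and close a negative feedback loop. Macrophages use the pathway to induce cytokines and chemokines.

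RefSeq promoter windows (GRCm38.p6, 250 bases before to 50 bases after each annotated start) matched 7 of the 10 genes by symbol: Rela, Rel, Nfkb2, Nfkbia, Nfkbib, Nfkbie and Bcl3. The kB consensus, the general NF-kB binding motif of 10 bases, was searched on both strands. It matched in windows of 5 of these genes, Rel, Nfkb2, Nfkbia, Nfkbie and Bcl3, and in none of Rela and Nfkbib. Counted by window, 7 of their 9 windows held a match, among them all 3 windows of Nfkb2. The Nfkb2 windows at chr19:46305445-46305744 and chr19:46305680-46305979 overlap and share a matched site, which is thus counted in both. Of all genes with a window 5.14% held a match, and of all 32851 windows 4.51%. A match is a description of letters only, and a window without one says nothing of the factor. Windows of 4 genes are shown because they hold a match while the transcript levels of their genes differ widely: Nfkbia and Rel were well detected in every mouse, Nfkb2 in 1 mouse, and Nfkbie was close to 0. For Nfkb2, which has 3 windows, the one whose matches lie nearest to its start site is shown. Each is written 5′ to 3′ on the strand of its gene and ends at or before the start site, and capitals mark bases covered by a match on either strand.
Nfkbia: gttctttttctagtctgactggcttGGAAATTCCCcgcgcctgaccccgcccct
Rel: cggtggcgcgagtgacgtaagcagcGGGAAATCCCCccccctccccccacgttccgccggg
Nfkb2: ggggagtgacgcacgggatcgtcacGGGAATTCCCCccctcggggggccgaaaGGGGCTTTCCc
Nfkbie: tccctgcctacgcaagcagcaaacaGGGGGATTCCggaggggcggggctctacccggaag
They lie at chr12:55492648-55492701 (minus strand), chr11:23771026-23771086 (minus strand), chr19:46304673-46304736 (plus strand) and chr17:45555569-45555628 (plus strand). The Nfkbia match starts at -29 from the start site on the opposite strand, where it reads GGGAATTTCC. In Rel 3 matches overlap, the first starting at -92. The Nfkb2 window holds an overlapping group from -39 and a separate match, GGGGCTTTCC, at -11. The Nfkbie match, GGGGGATTCC, starts at -106.

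The reads counted over the listed genes were similar in number, at 50646558 to 56718534 per library. Levels are normalised reads: reads divided by the size factor of the library, after removal of the 1 that the deposited values carry on top. Over all listed genes they summed to 4.11e+07, 3.15e+07 and 3.57e+07 in mice 1, 2 and 3. Folds between mice thus depend on this scaling. Where no read was counted, the true level can still be as high as 3 reads, which is 2.42 normalised reads in mouse 1, 1.66 in mouse 2 and 2.11 in mouse 3. This limit covers counting error only. Of the 15 macrophage markers checked, 14 reached 10 normalised reads in each library, Itgam being the exception, and they summed to 840365 to 1139200. All 12 ubiquitously used genes reached that level too. The library of mouse 2 stood apart in kidney tubule markers: the 13 genes summed to 42265, 199777 and 18508 in mice 1, 2 and 3, and 12 of the 13 were highest in mouse 2. They were led by the proximal tubule gene Kap, and all 13 had reads in mouse 2. Of the neutrophil markers, 2 of 8 have a row, and these were at or near 0 (summed 0 to 19.4), with S100a9 at 0 in every mouse. Of the lymphocyte markers, 3 of 11 have a row: Cd3e was at 0 in every mouse, Cd3d was at 1.11 in mouse 2 and 0 in the others, and the B cell receptor gene Cd79b was at 227, 3940 and 6359. Dendritic cell markers (7 of 8 have a row) summed to 5229, 3127 and 4341, with Cd209a and Ccr7 at 0 in every mouse. Endothelial and stromal markers summed to 208 to 1405. In sorted cells measured in bulk, fewer cells of a type and less RNA per cell cannot be told apart.

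Together the 10 genes took 0.0665%, 0.0403% and 0.0393% of the normalised reads in mice 1, 2 and 3. Of the 8 with a mean of 10 or more, 6 reached 10 in each of the 3 mice: Rela, Rel, Nfkb1, Nfkbia, Nfkbib and Nfkbiz. Among the 11636 genes with such a mean, 56.5% did. Relb and Nfkb2 met this level in mouse 2 only, and Nfkbie and Bcl3 in none. To compare genes with each other, levels were divided by exon length in kb. On that scale the order of the means was Nfkbia, Nfkbiz, Rela, Rel, Nfkb1, Nfkbib, Relb, Nfkb2, Nfkbie and Bcl3.

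**Figure D1:**
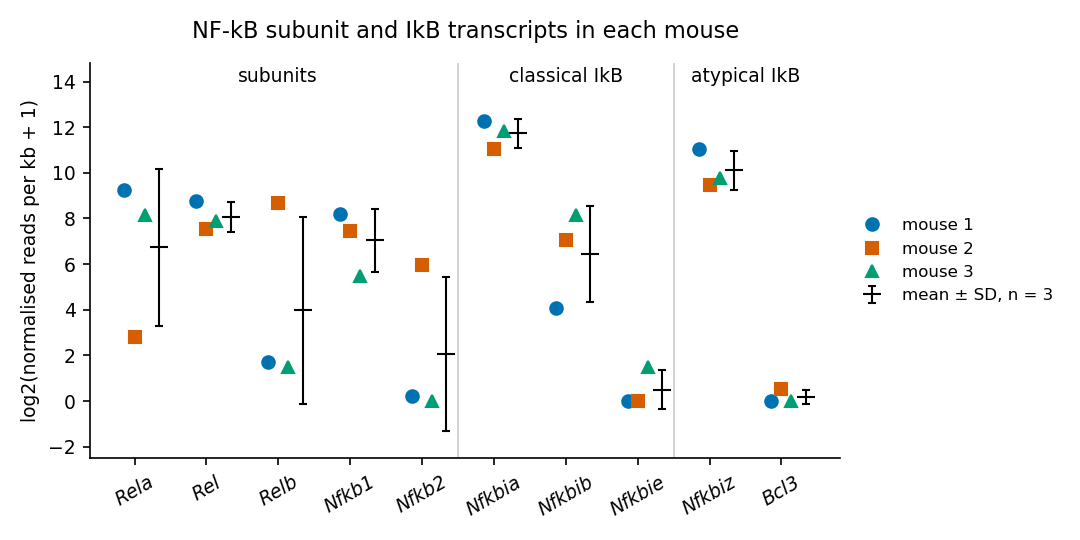
Level of each gene in each mouse, as log2 of normalised reads per kb of exon plus 1, with the mean ± SD over 3 mice beside the points. Nfkbia and Nfkbiz lie high in all 3 mice, Relb and Nfkb2 are high in mouse 2 alone, and Rela is low in mouse 2 alone.

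Rela encodes p65, the main activating subunit of the canonical arm. It was at 1850, 18.3 and 879 normalised reads in mice 1, 2 and 3, from 2294, 33 and 1247 reads. Mice 1 and 3 were high, and the level in mouse 2 was 101-fold below mouse 1 and 48.0-fold below mouse 3. Rel, which encodes c-Rel, was steadier, at 3271, 1365 and 1768. Its highest mouse was 2.40-fold above its lowest, and the SD of its log2 level over mice was 0.65. For the 8991 genes with a mean of 100 or more, the median of that SD was 2.05, and for Rela it was 3.53.

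Relb, the activating subunit of the non-canonical arm, showed the reverse picture of Rela. It was at 8.87, 1609 and 7.05 normalised reads, from 11, 2900 and 10 reads, so mouse 2 was 181-fold above mouse 1 and 228-fold above mouse 3. Nfkb2, which encodes the p100 precursor that pairs with the Relb protein, followed the same pattern. It was at 0.806, 284 and 0 normalised reads, from 1, 511 and 0 reads. Against the floor of 3 reads in mouse 3, mouse 2 was at least 134-fold higher. Both genes of this pair were thus detected well in 1 and the same mouse. A level over 10-fold above both other mice (on value + 1) was found in mouse 2 for 2 of the 8 genes, and for 15.1% of the 11636 genes with a mean of 10 or more. The corresponding shares were 7.55% for mouse 1 and 7.58% for mouse 3, where none of the 8 showed it. A level over 10-fold below both other mice was found in mouse 2 for Rela alone, and for 3.6% of all genes. These patterns were defined after the values were seen.

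Mouse 2 is the mouse with the highest kidney tubule markers. The part of that difference in the levels of Relb, Nfkb2 and Rela was not tested. Dendritic cells are another known source of Relb transcripts. Of their 7 markers with a row, 2 had their lowest level in mouse 2, as 3767 of the 14811 listed genes did. These were Clec9a, at 3421, 1330 and 1462 normalised reads in mice 1, 2 and 3, and Xcr1, at 534, 2.77 and 407. The sum was lowest in mouse 2 as well. Flt3 was at 4.84, 0 and 0 normalised reads, Zbtb46 at 0, 0 and 16.2, and Batf3 at 1269, 1794 and 2456, so single markers differed in their order of mice. Their part in the level of Relb was not tested. Without mouse 2, the means of Relb and Nfkb2 fell to 7.96 and 0.403 normalised reads, from 542 and 94.8 over all 3 mice. The mean of Rela, 916 over all 3 mice, was 1364 without mouse 2, 449 without mouse 1 and 934 without mouse 3.

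Nfkb1, which encodes the p105 precursor of p50, was at 3494, 2092 and 526 normalised reads. Mouse 1 was the highest and 6.64-fold above mouse 3, and all 3 libraries held at least 747 reads of it. Per kb of exon Nfkb1 exceeded Nfkb2 in 3 of 3 mice, by a mean log2 difference of 4.97 ± 3.27 (SD, n = 3). In mice 1 and 3 Nfkb2 had 1 and 0 reads, so the size and spread of this difference depend on the pseudocount of 1. The exon length matters for Nfkb1. All annotated exons of Nfkb1 add up to 12061 bases while its longest coding transcript has 4117, and with the latter its mean rose from 169 to 495 per kb and its place from the fifth to the third.

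As shares of the summed subunit level per kb, the make-up differed between mice. Rela held 45.2%, 0.711% and 50.3% in mice 1, 2 and 3, and Relb held 0.171%, 49.4% and 0.319%. Rel held 32.9%, 21.8% and 41.7%, Nfkb1 21.7%, 20.7% and 7.68%, and Nfkb2 0.0132%, 7.38% and 0%. In mice 1 and 3 most of the subunit transcript was thus from Rela and Rel, and in mouse 2 from Relb, Rel and Nfkb1. The summed level was 1332, 838 and 568 normalised reads per kb. With the longest coding transcript as length, Rela held 34.5%, 0.450% and 46.8% and Relb 0.204%, 48.6% and 0.461%. Nfkb1 then held 43.0%, 33.9% and 18.5%, more than Rela in mouse 1.

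**Figure D2:**
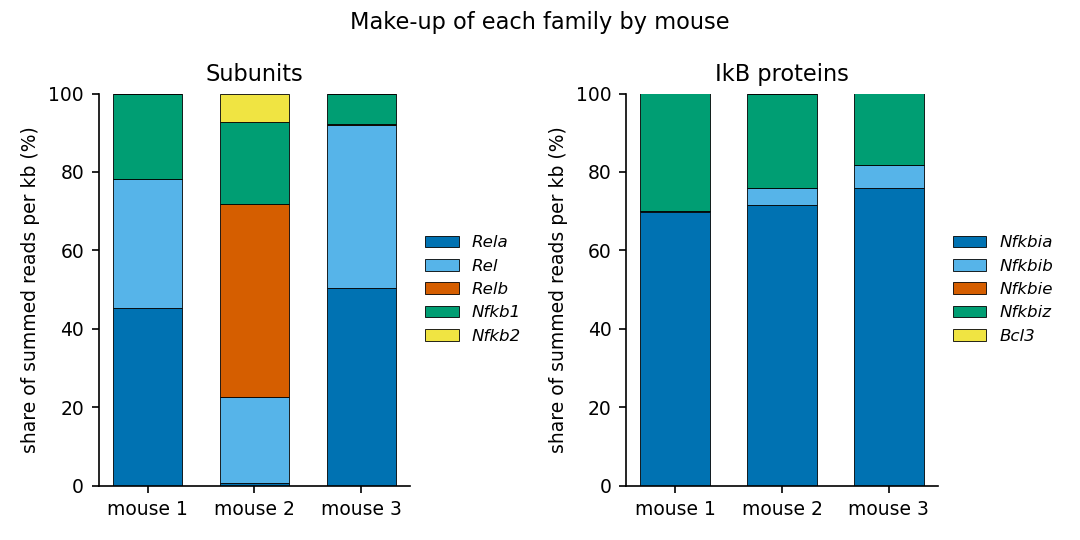
Share of each gene in the summed normalised reads per kb of exon, for the 5 subunits (left) and the 5 IkB genes (right), 1 bar per mouse. Relb takes 49.4% of the subunit sum in mouse 2 and under 1% in the others, while Nfkbia takes 69.9% to 75.9% of the IkB sum in every mouse.

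Among the classical IkB genes, Nfkbia, which encodes IkB alpha, the rapidly resynthesised inhibitor, was the most abundant. It was at 7991, 3428 and 5871 normalised reads in mice 1, 2 and 3, and its highest mouse was 2.33-fold above its lowest. Per kb of exon it was at 3580 ± 1418 (SD, n = 3), above 97.5%, 95.1% and 96.7% of the genes in the 3 libraries. Nfkbib, which encodes IkB beta, was at 34.7, 287 and 610 normalised reads. Mouse 1 was the lowest, 17.6-fold below mouse 3. Cd79b was also lowest in mouse 1 and highest in mouse 3, and its part in this difference was not tested. Nfkbie, which encodes IkB epsilon, was at 0, 0 and 5.64 normalised reads, from 8 reads in mouse 3. Nfkbib shares 16.4% of its exon bases with Ccer2 and Sirt2 on the opposite strand, Nfkb2 18.1% and Bcl3 6.51% with other genes, and reads there cannot be assigned where counting ignores strand.

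The atypical IkB genes encode nuclear proteins that modify NF-kB bound to DNA. Nfkbiz, which encodes IkB zeta, a cofactor for secondary response genes, was at 10664, 3587 and 4375 normalised reads in mice 1, 2 and 3. Mouse 1 was 2.97-fold above mouse 2, and the other two were close. Bcl3, a partner of p50 and p52, was at 0, 1.11 and 0 normalised reads, 2 reads in all. Nfkbid, another gene of this kind that was not among the 10, was at 0, 69.4 and 0 normalised reads, again with mouse 2 alone above 0.

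Of the summed IkB level per kb, Nfkbia held 69.9%, 71.5% and 75.9% in the 3 mice and Nfkbiz 29.9%, 24.0% and 18.2%. The rest was almost entirely Nfkbib, at 0.225%, 4.45% and 5.85%. In contrast to the subunits, the order of Nfkbia, Nfkbiz and Nfkbib was the same in 3 of 3 mice. The classical IkB genes together exceeded the 5 subunits together per kb by 3.74-, 2.70- and 6.91-fold in mice 1, 2 and 3. With the longest coding transcript as length these ratios were 2.58, 1.54 and 5.81. Nfkbia exceeded Nfkbiz by 2.34-, 2.98- and 4.18-fold per kb.

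Rela, Rel, Nfkbia and Nfkbiz shared an order of mice, with mouse 1 above mouse 3 and mouse 3 above mouse 2. These were 4 of the 8 genes with a mean of 10 or more, and 15.5% of the 11636 genes had this order. The other orders were held by 13.7% to 17.8% of genes. The summed normalised reads of all listed genes also ran mouse 1 above mouse 3 above mouse 2. The part of this scaling in the shared order was not tested. The order shared by Rela, Rel, Nfkbia and Nfkbiz was picked out after the values were seen, so its share among the 8 is no test. Immediate early and dissociation genes, which tissue digestion can induce, summed to 27472, 15472 and 36014 normalised reads, lowest in mouse 2 as well, where 8 of the 16 had their lowest level, as 3767 of the 14811 listed genes did. Their part in the levels of Nfkbia and Nfkbiz was not tested.

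Between neighbours in the order per kb, the log2 difference over mice was larger than its SD for 3 of the 9 pairs. Nfkbia was above Nfkbiz by 1.62 ± 0.42 (SD, n = 3), Nfkbiz above Rela by 3.37 ± 2.87, and Relb above Nfkb2 by 1.90 ± 0.71, each in 3 of 3 mice. In mice 1 and 3 the last pair rests on 11 and 10 reads of Relb and on 1 and 0 reads of Nfkb2. The size and spread of its difference thus depend on the pseudocount of 1. Rel was above Nfkb1 in 3 of 3 mice by 1.03 ± 1.23, within its spread. This order depends on the exon length. With the longest coding transcript as length, Nfkb1 held more of the subunit sum than Rel in mouse 1 (43.0% against 22.2%) and mouse 2 (33.9% against 12.2%). In mouse 3 it held less (18.5% against 34.3%). For Rela and Rel the mean of the log2 difference was -1.33 ± 2.94, opposite in sign to the order of the means, with Rela higher in 2 of 3 mice. The pairs Nfkb1 and Nfkbib (0.61 ± 3.38), Nfkbib and Relb (2.46 ± 4.14), Nfkb2 and Nfkbie (1.57 ± 3.92) and Nfkbie and Bcl3 (0.33 ± 1.06) did not differ beyond their spread.

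Each library also gave the ratio of every gene to its median gene, per kb on the log2(value + 1) scale. The median gene of a library was the median over the 11603 genes tested, not over all listed genes. The ratios were tested against 0 with limma. Nfkbia stood above the median gene by 5.37 ± 0.88 (SE, n = 3, 3 of 3 mice, adjusted p = 0.0436, limma). It was the 1 gene of 8 that was called higher, and 9.17% of all genes tested were. Nfkbiz was above it by 3.75 ± 0.91 in 3 of 3 mice and missed the threshold (adjusted p = 0.0567, limma). Rel was 1.72 ± 0.88 above it in 3 of 3 mice (adjusted p = 0.213, limma). Nfkb2 was below it in 3 of 3 mice, with a log2 ratio of -4.28 ± 1.44 (adjusted p = 0.10, limma). With no filter on low values, where more genes set the median, Nfkb2 was above it in 1 mouse and below it in 2 (log2 ratio -3.05). None of the 8 was called lower, against 3.59% of all genes, and 1 of them, Nfkb2, had an unadjusted p under 0.05. Rela (0.38 ± 1.59), Nfkb1 (0.69 ± 0.97), Nfkbib (0.08 ± 1.12) and Relb (-2.38 ± 1.66) lay within 1.5 SE of the median gene.

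The call of Nfkbia was lost when any mouse was left out, with log2 ratios of 5.02, 5.83 and 5.26 and adjusted p = 0.137, 0.0660 and 0.113 without mice 1, 2 and 3 (limma). It was also lost with a pseudocount of 0.1 (log2 ratio 5.39, adjusted p = 0.0780, limma) and without division by exon length (log2 ratio 4.17, adjusted p = 0.0809, limma). Over the 10 alternatives the log2 ratio stayed between 3.47 and 6.61, and 5 of them passed the threshold.

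**Figure D3:**
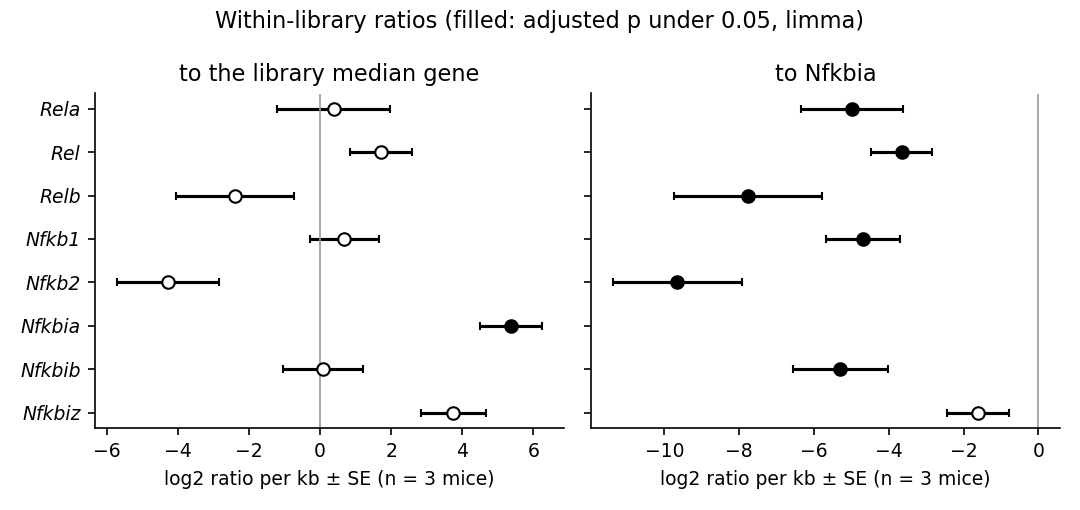
Log2 ratio per kb of each gene with a mean of 10 or more to the median gene of its library (left) and to Nfkbia (right), with its SE over 3 mice. Filled points passed an adjusted p of 0.05 (limma). Nfkbia is the 1 filled point on the left, and 6 of the 7 points on the right are filled and lie below 0.

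Set against Nfkbia in the same library, 6 of the other 7 genes were called lower. The log2 ratio was -3.66 ± 0.81 (SE, n = 3) for Rel (adjusted p = 0.0172, limma), -4.69 ± 0.99 for Nfkb1 (adjusted p = 0.0156, limma) and -4.99 ± 1.36 for Rela (adjusted p = 0.0273, limma). It was -5.29 ± 1.26 for Nfkbib, -7.75 ± 1.98 for Relb and -9.65 ± 1.73 for Nfkb2, each in 3 of 3 mice. Nfkbiz was not called (-1.62 ± 0.82, adjusted p = 0.127, limma), although it was lower in 3 of 3 mice. The share of 6 in 7 is near the 78.2% of all genes that were called lower than Nfkbia, so it is no result about these genes in particular. Of all genes, 0.672% were called higher than Nfkbia, and none of the 7 was. Without mouse 1, none of the 7 was called lower, against 2951 of all 11602 genes tested. Without mouse 2, 2 were called lower, against 4919 of all genes, and without mouse 3, 2 were, against 5853. Without division by exon length 2 were, against 4954 of all genes.

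Against Rela, no gene of the other 7 was called higher or lower by limma, and none had an unadjusted p under 0.05. Of all genes, 0.155% were called higher and 0% lower, with 391 higher and 595 lower at an unadjusted p under 0.05. limma gave 1 common SE, 2.63, to the ratios of all 7 genes. Without mouse 2, in which Rela was low, Relb (log2 ratio -7.10, adjusted p = 0.0185, limma) and Nfkb2 (log2 ratio -8.58, adjusted p = 0.0152, limma) were called below Rela. With mouse 2 the log2 ratios were -2.77 and -4.66 (adjusted p = 0.627 and 0.480, limma). Without mouse 2, 2814 of the 11602 genes tested were called below Rela. The calls made without it are thus no result about Relb and Nfkb2 in particular.

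Other genes of the pathway were taken from lists, each given here by its levels per kb of exon and its calls against the median gene. Of all genes tested, 9.17% were called above that gene and 3.59% below. In lists this short, the absence of a call is no result about a list. The IkB kinase list holds 12 genes. Its highest was Chuk, the kinase subunit IKK alpha, at 1658 ± 581 normalised reads per kb (SD, n = 3), followed by Tbk1 (1044 ± 800), Tab2 (794 ± 978) and Map3k8 (741 ± 597). Chuk was called above the median gene (log2 ratio 4.27, adjusted p = 0.0484, limma). Ikbkg, the scaffold subunit NEMO, was called below it at 2.28 ± 1.54 (log2 ratio -4.77, adjusted p = 0.0456, limma), and Ikbke was at 0 in every mouse. Map3k14, the kinase that starts the non-canonical arm, was at 0, 102 and 40.9 normalised reads in mice 1, 2 and 3.

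Of 8 genes of the machinery that degrades IkB proteins, 7 reached 10 normalised reads in each mouse. Of the 7 tested, Nedd8 (5650 ± 827 per kb) and Skp1a (2754 ± 1938) were called above the median gene, against 9.17% of all genes. Ube2d3 (974 ± 84.6) and Cul1 (971 ± 631) followed. The exception was Btrc, an F-box protein that recognises phosphorylated IkB, at 0, 3.33 and 0 normalised reads. Its close relative Fbxw11 was at 258, 738 and 5224.

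Among 20 receptor adaptors and ubiquitin ligases with a row, Bcl10 (1535 ± 1519 per kb), Birc3 (945 ± 699), Birc2 (641 ± 161) and Myd88 (594 ± 549) were highest and Ube2v1 lowest (3.61 per kb). None of the 19 tested was called in either direction. Of 5 receptors of the non-canonical arm, Cd40 was at 9.68, 542 and 5283 normalised reads and Ltbr, the lymphotoxin receptor, at 12.9, 141 and 7.05. Tnfrsf12a (754 ± 641 per kb), Tnfrsf1b (392 ± 528) and Tnfrsf11a (210 ± 185) were the others, and none was called. Ltbr and Tnfrsf11a were highest in mouse 2, as Relb, Nfkb2 and 4911 of the 14811 listed genes were. Cd40 and Tnfrsf1b were highest in mouse 3 and Tnfrsf12a in mouse 1.

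Negative regulators varied between mice. Tnfaip3, which encodes the deubiquitinase A20 and is itself an NF-kB target, was at 4850, 5.55 and 49.3 normalised reads, high in mouse 1 only. The highest of the 14 genes with a row were Tnip2 (1034 ± 884 per kb), Commd1 (479 ± 317), Nkiras1 (355 ± 373) and Itch (310 ± 121). The lowest above 0 was Nkiras2 at 7.82 per kb. Irak3 was at 0 in every mouse, and none of the 13 tested was called. Of 8 coactivators and corepressors tested, none was called either. Hdac3 (417 ± 439 per kb) and Ep300 (378 ± 293) were the highest of that list, then Sirt1 (339 ± 224) and Hdac1 (189 ± 215).

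Of 23 NF-kB target genes tested, 7 were called above the median gene, against 9.17% of all genes, and none below. Ccl4 (36306 ± 32539 per kb), Bcl2a1b (14217 ± 1999), Ccl3 (11232 ± 10731) and Il1b (9082 ± 1263) led, and Cd83, Vcam1 and Ccl5 completed the 7. Il1a, Il6, Il12b and Gadd45b were at 0 in every mouse, and Ptgs2 was the lowest of the others at 0.176 per kb. Bcl2a1b has near-identical copies, so its value is uncertain. Of 15 immediate early and dissociation genes tested, Klf6 (2132 ± 790 per kb) was the 1 called above the median gene, against 9.17% of all genes. With 15 genes, 1 call is no result about that list. The target list is of known targets in general and was not chosen on the binding of any factor in these cells. The median over its 29 genes with a row was 7.39 on the log2(reads per kb + 1) scale, compared with 6.58 for the 10 subunit and IkB genes and 4.38 for all listed genes.

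The genes with the pattern over mice most like that of Nfkbia were Txnip (root mean square distance of log2 deviations 0.0141), Gm14253 (0.0221) and Jdp2 (0.0255). Of the 8990 other genes with a mean of 100 or more, 245 lay within 0.2. For Rela they were Mon2 (0.0536), Stard8 (0.0682) and Zmym4 (0.0938), and 6 genes lay within 0.2. Mon2 was at 1244, 12.8 and 572 normalised reads, high in mice 1 and 3 and low in mouse 2 as Rela was. With 3 mice such likeness has 2 free values per gene and is given as a description only.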

How the data were processed

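RNA was measured in 3 libraries of 1 group, made with SMART-seq v4 (10 ng of amplified cDNA, 8 PCR cycles), per the labels' protocols. The values the authors deposited are a normalised signal. The submitters' processing notes name HTSeq 0.5.4, DESeq 1.18.0 and mm9. The aligner and the annotation were not found in the labels or headers. The lowest deposited value was 1 in each library, so 1 was subtracted. In each library 100% of values were then whole multiples of 1 step per library (tolerance 0.05 of a step), and reads are values divided by that step. No 2 libraries were copies: 92.3% to 93.1% of genes differed between any pair beyond counting noise. PCR reads without molecular identifiers are not molecules. Exon lengths (GENCODE M21, union of exons, by gene identifier) covered 99.6% of genes.

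Ratios within a library were tested with limma 3.58.1 in R 4.3.3 (intercept only, 2-sided, Benjamini-Hochberg over all genes with a mean of 10 or more, pseudocount 1, threshold 0.05). On data simulated from 11603 genes, ratios to the median gene were called for 6% of genes set at it, 42% at 4-fold, 78% at 16-fold and 92% at 64-fold. The named genes were the 10 members, the 4 highest, the lowest and those at 0 of each list, and the 3 most alike; others were named after their values were seen. The lowest gene of 1 list is not reported here. Members and lists were chosen with earlier results of these data known. Other steps ran in Python 3.11.15 (pandas 2.3.3, numpy 2.4.6). Alternatives are given in the closing section.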

Additional observations from a re-analysis of the deposited data

How the results depend on the processing

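Counts of calls depended strongly on settings; causes were not tested. Against the library median gene, 1064 genes were called higher and 416 lower. These counts were 0 and 0 with a pseudocount of 0.1 or no division by exon length (at an unadjusted p under 0.05, 2161 and 1846, and 2187 and 2338), 2051 and 1121 with a pseudocount of 10, 2644 and 2354 with no filter, 2706 and 1237 with a trend in the prior variance, and 0 to 0 when each mouse was left out. Members called higher numbered 1, and 0 with a pseudocount of 0.1, no length division or a mouse left out (0 to 0), and 2 with a pseudocount of 10, no filter or the trend. Members called lower numbered 0, and 2 with no filter. Against Rela, 18 genes were called higher: 2 with a pseudocount of 0.1, 70 with 10, 62 with 10 or more in every mouse, 0 without length division or with the trend, and 0 to 112 without one mouse. The count called lower was 0, and 0 to 2814 without one mouse, with 0 to 2 members. Against Nfkbia, 78 genes were called higher and 9075 lower: 124 and 4840 with 10 or more in every mouse, 248 higher with the trend, 4954 lower without length division, and 21 to 32 higher and 2951 to 5853 lower without one mouse. Of members, 6 were called lower, 2 without length division and 0 to 2 without one mouse.

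Ratios to the median gene changed sign with 10 or more in every mouse for Rel (-0.19), Rela (-1.52), Nfkb1 (-1.22) and Nfkbib (-1.83), where fewer genes set the median. Rela also changed without mouse 1 (-0.94) and mouse 3 (-0.38; range over mice left out -0.94 to 2.47), and Nfkbib without length division (-0.71), without mouse 2 (-0.11) and mouse 3 (-0.83; range -0.83 to 1.18), and with the longest coding transcript (-0.32), an alternative chosen after seeing the data. Ratios to Rela changed sign without mouse 2 for Rel (-0.36; range -0.36 to 2.23) and Nfkb1 (-1.87; range -1.87 to 1.80) and without mouse 1 for Nfkbib (2.12; range -2.59 to 2.12). The ratio of Nfkbiz to Nfkbia changed sign without length division (0.019). None of these was called in either case. The planned count test (edgeR) was not run, and TPM computed here from the reads, which have another unit, were compared by order only, which was that per kb. No paired analysis was possible because there is a single group.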

Other observations

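Genes whose pattern over mice was most like that of Relb were looked up after its values were seen. By the root mean square distance of log2 deviations they were Dpyd (0.0473), Rnf152 (0.0511) and Spire1 (0.0524), and 42 of the 8990 genes compared lay within 0.2. Dpyd, which encodes an enzyme of pyrimidine breakdown, was at 4.03, 816 and 2.82 normalised reads in mice 1, 2 and 3. Rnf152 was at 6.45, 1117 and 4.93 and Spire1 at 4.84, 871 and 3.52. All 3 were high in mouse 2 alone.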
